A study of Mus musculus with 15 samples.

Results

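Mouse liver in the HFD-337 high-fat diet group was compared with liver on standard diet, to ask what still separated livers of that group from standard-diet liver. The comparison uses the raw counts of 6 of the 15 libraries of the series, and all 13189 of 26264 genes with enough counts were tested. The series concerns metabolic dysfunction-associated steatotic liver disease in mice on a high-fat diet, with Gc337, an agent directed at the kinase Stk25, and resmetirom, which activates thyroid hormone receptor beta. HFD-337 (replicates 23, 26 and 27) is a high-fat diet group whose number is read here as that of Gc337. HFD-NS (replicates 12, 13 and 16) is a high-fat diet group with no agent in its label, and its values stand beside the others to show how HFD-337 sits between or beyond them. SD-NS (replicates 6, 7 and 8) is read as standard diet, also with no agent in its label, and NS is not spelled out. Strain, age, sex, dose, length of feeding, feeding state and time of sampling are not in the labels used here, and no group is named as a control for the agent. HFD-337 and SD-NS therefore differ in both diet and agent, and these, like any unlabelled difference in feeding or sampling time, cannot be told apart. The labels do not say that replicates were separate animals, so p-values measure only the spread between these samples, which may be technical.

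In the fasted liver, fatty acids reaching the nuclear receptor PPAR alpha switch on their own oxidation in mitochondria and peroxisomes and the making of ketone bodies, while glucagon and low insulin keep gluconeogenesis running. After a meal insulin raises glycolysis and SREBP1c, which turn carbohydrate into fatty acids and triglyceride, and this cycle runs on a daily clock in which BMAL1 and CLOCK drive the Per, Cry and Rev-erb genes that hold them back. Stk25 is a kinase of the germinal centre kinase III family that sits on lipid droplets of hepatocytes and belongs to STRIPAK, a complex that couples such kinases to protein phosphatase 2A.

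Libraries held 4681937, 8995337 and 5060839 counts in HFD-337, 8762163, 8030651 and 9797743 counts in HFD-NS and 8490747, 5893454 and 3873903 counts in SD-NS. Levels are CPM, read counts scaled to a common library total with TMM factors, given in the replicate order above, and a log2 fold change is HFD-337 over SD-NS unless another pair is named. In parentheses it stands with an approximate standard error after ± and its p-value from edgeR, adjusted over all genes tested. The edgeR test gives no standard error. It was worked back as the absolute log2 fold change divided by the square root of the test's F statistic. Intervals of log2 fold changes in the text and figures rest on this approximation. A gene was called, and is said to have risen or fallen, at a Benjamini-Hochberg adjusted p under 0.05 in edgeR's quasi-likelihood test over all 13189 genes. In a principal component analysis of these 9 libraries the leading component held 61.2% of the variance and put HFD-337 between -41.2 and -30.4, HFD-NS between -1.43 and 2.87 and SD-NS between 33.4 and 35.7. Hepatocyte markers were abundant in all of them. Alb, which encodes albumin, was at 63053, 98806 and 59196 CPM in HFD-337, against 109897, 92457 and 86977 CPM in SD-NS, and the groups overlapped. Its call (-0.39 ± 0.16, adjusted p = 0.0454) was lost without HFD-337 replicate 23 (adjusted p = 0.155) or 27 (0.27) and without SD-NS replicate 6 (0.189) or 7 (0.0712). It was also lost with RLE size factors (0.0505), no low-count filter (0.0716) and the 2 groups fitted alone (0.146). All 15 libraries had Y-linked transcripts (Ddx3y 109 to 179.8 CPM, Uty 13.2 to 31.1 CPM) and next to no Xist, the transcript of the inactive X chromosome.

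Stk25 (Stk25, chromosome 1, 93548473 to 93563449 in mm39), the gene that the agent targets, was at 19.1, 18.8 and 14.6 CPM in HFD-337 and 48.6, 43.7 and 47.3 CPM in HFD-NS, against 50.6, 53.3 and 47.8 CPM in SD-NS. Every HFD-337 library lay below every library of the other 2 groups, with a log2 fold change of -1.52 ± 0.12 (adjusted p = 4.26e-09). HFD-NS did not differ from SD-NS by the test (-0.12 ± 0.11, adjusted p = 0.428). Of its exon length 23.1% is shared with Farp2, and reads there were counted for both genes.

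HFD-337 and SD-NS differed widely. Of 13189 genes tested, 3706 rose (28.1%) and 3575 fell (27.1%), and 1656 (12.6%) rose and 1355 (10.3%) fell by at least 2-fold. HFD-NS against the same SD-NS libraries had 1589 genes higher (12%) and 2122 lower (16.1%), with 592 higher (4.49%) and 292 lower (2.21%) by at least 2-fold. Of these calls 42.8% were higher, against 64.4% with recomputed TPM (1984 higher and 1098 lower) and 53.3% with no low-count filter (1722 and 1511), and without SD-NS replicate 7 there were 1054 higher. HFD-337 against HFD-NS had 3214 genes higher (24.4%) and 3006 lower (22.8%), and 962 higher (7.29%) and 912 lower (6.91%) by at least 2-fold. Here 51.7% of calls were higher, against 38.2% with recomputed TPM (2220 and 3593). These comparisons share libraries, so their values are set side by side only. Median log2 fold changes over all genes tested were 0.05 for HFD-337 against SD-NS, -0.02 for HFD-NS against SD-NS and 0.03 for HFD-337 against HFD-NS.

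Many of the 15 largest rises over SD-NS were of genes almost silent on standard diet. Klhl31, a kelch-repeat adaptor best known from muscle, was at 7.68, 7.03 and 1.62 CPM in HFD-337 and 0.584, 2.11 and 3.69 CPM in HFD-NS, against 0, 0 and 0 CPM in SD-NS. It had no count in SD-NS and was at least 29.4-fold higher in HFD-337 and at least 11.5-fold higher in HFD-NS, against a floor of 3 counts over the SD-NS group. Clec2h, a C-type lectin-related gene, was at 26.2, 46.6 and 40.6 CPM in HFD-337 and 1.05, 0.372 and 3.06 CPM in HFD-NS, against 0.133, 0.778 and 0.563 CPM in SD-NS. Here HFD-337 lay above both other groups, with a log2 fold change of 6.39 ± 0.67 (adjusted p = 4.1e-06). Dnaic1, a dynein intermediate chain of cilia, was at 8.27, 14.4 and 27.4 CPM in HFD-337 and 0.467, 0.124 and 0.211 CPM in HFD-NS, against 0.133, 0.389 and 0.281 CPM in SD-NS. Again HFD-337 lay above both other groups, with log2 fold changes against SD-NS of 5.96 ± 0.77 (adjusted p = 1.64e-05) for HFD-337 and 0.11 ± 1.48 (adjusted p = 0.97) for HFD-NS. Gbp11, a guanylate-binding protein of the interferon-induced GBP family, was at 105, 47.8 and 167 CPM in HFD-337 and 14.5, 10.3 and 14.7 CPM in HFD-NS, against 2.93, 3.69 and 3.09 CPM in SD-NS, apart in all 3 groups (5.03 ± 0.57, adjusted p = 2.16e-05).

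Other large rises stood on 1 or 2 counts in SD-NS, so they are given as ratios of counts with exact binomial 95% intervals that cover counting error only. Cndp1, a dipeptidase that splits carnosine, was at 14.4, 22.6 and 12.8 CPM in HFD-337 and 2.57, 0.621 and 1.90 CPM in HFD-NS, against 0.266, 0 and 0 CPM in SD-NS. HFD-337 was above both other groups, with a ratio to SD-NS of 144 (39.6 to 1194, adjusted p = 1.17e-08 in edgeR's test). Cfd, complement factor D and a product of fat cells, was at 29.3, 10.03 and 5.28 CPM in HFD-337 and 9.57, 5.59 and 14.8 CPM in HFD-NS, against 0, 0.389 and 0 CPM in SD-NS. The high-fat diet groups overlapped, and the ratio of HFD-337 to SD-NS was 114 (31.2 to 944, adjusted p = 0.000243). Hao2, a peroxisomal hydroxy acid oxidase, was at 8.66, 12.3 and 0.406 CPM in HFD-337 and 4.55, 9.93 and 4.74 CPM in HFD-NS, against 0.133, 0 and 0 CPM in SD-NS. HFD-337 replicate 27 lay far below the other high-fat diet libraries (ratio of HFD-337 to SD-NS 133, 23.5 to 5278, adjusted p = 0.00158). Ihh, a hedgehog ligand, was at 3.54, 4.26 and 5.89 CPM in HFD-337 and 0.934, 0.745 and 0.632 CPM in HFD-NS, against 0.133, 0 and 0.281 CPM in SD-NS, highest in HFD-337 (ratio to SD-NS 36.4, 9.78 to 306, adjusted p = 7.51e-07).

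The 15 largest falls were those of Cpne5, Lepr, Lrrc15, Peg10, Nup62cl, Ehhadh, Pdk4, Igfbp1, Acot3, Nipal1, Cxcl13, Cyp4a14, Acot1, Cd163 and Lrrc8c, of which Lrrc15, Nup62cl, Cxcl13 and Lrrc8c stood on 1 or 2 counts in HFD-337. Cpne5, a calcium-dependent phospholipid-binding protein, was at 0, 0 and 0 CPM in HFD-337, 0, 0 and 0 CPM in HFD-NS and 3.73, 3.11 and 2.25 CPM in SD-NS. With no count in either high-fat diet group, it was at least 18.9-fold lower in HFD-337 and at least 26.4-fold lower in HFD-NS, with a floor of 3 counts over each group. Nipal1, a magnesium transporter, was at 1.38, 1.27 and 0.406 CPM in HFD-337 and 3.97, 13.7 and 9.17 CPM in HFD-NS, against 23.6, 31.5 and 26.7 CPM in SD-NS, with a log2 fold change of -4.65 ± 0.51 (adjusted p = 3.82e-06). Peg10, an imprinted retrotransposon-derived gene, was at 0.197, 0 and 0.203 CPM in HFD-337 and 0.934, 0.869 and 0.632 CPM in HFD-NS, against 7.32, 5.64 and 2.81 CPM in SD-NS. With 2 counts in HFD-337, the ratio of SD-NS to HFD-337 was 54.2 (14.6 to 454, adjusted p = 4.07e-07).

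Gene length moved with the direction of change. Of 3558 genes spanning under 10 kb of genome, 45.1% rose and 12.1% fell (median log2 fold change 0.44), and of 539 genes spanning at least 200 kb, 6.68% rose and 46.4% fell (median -0.57). By summed exon length, 55.0% of genes under 1 kb rose and 7.61% fell, against 16.5% and 38.9% of those of at least 4 kb. HFD-NS against SD-NS was flatter, with 14.7% higher and 11.02% lower under 10 kb of span and 10.8% higher and 15.8% lower at 200 kb or more. HFD-337 against HFD-NS moved with length as well, with 40.0% higher and 9.92% lower under 10 kb of span. At 200 kb or more 6.31% were higher and 46.4% lower for that pair, and under 1 kb of exon length 48.5% and 5.81%. The median log2 fold change of each gene list in HFD-337 against SD-NS is therefore also given relative to genes of the same length class, called length-relative here and added after the data had been seen. Where an alternative setting or leaving out 1 library turned a list's median round or moved it by over 1.5 times, the value farthest off on that side follows, with the setting. Counts of 1 or 2 members called against a list's main direction moved by 1 without some library for the mitochondrial, peroxisomal, cholesterol, chemokine, cell cycle and pericentral lists below. List counts for the other comparisons carry no length-relative value, and the part of length in any result was not tested. List counts below stand against 28.1% higher and 27.1% lower over all genes tested in HFD-337 against SD-NS. For HFD-NS against SD-NS these shares were 12% and 16.1%, and for HFD-337 against HFD-NS 24.4% and 22.8%.

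**Figure D1:**
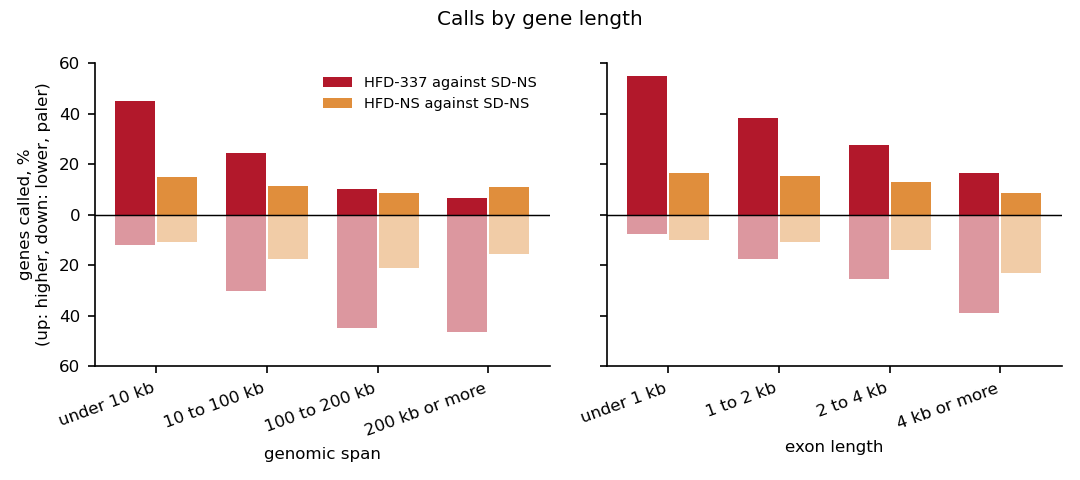
Percentage of tested genes called higher (upward bars) or lower (downward, paler bars) by class of genomic span and of summed exon length, for HFD-337 against SD-NS and HFD-NS against SD-NS. Under 10 kb of span 45.1% of genes were higher and 12.1% lower in HFD-337, and at 200 kb or more 6.68% were higher and 46.4% lower.

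Among Stk25, its paralogs and STRIPAK subunits, 11 of 15 tested genes fell and 2 rose (median -0.53, -0.47 length-relative). In HFD-NS against SD-NS 3 of them were lower and 0 higher. Stk24, the closest paralog, fell (-0.79 ± 0.14, adjusted p = 0.000131). Slmap, a membrane anchor of the complex, fell at 50.8, 43.6 and 55.6 CPM in HFD-337, against 95.2, 103 and 87.2 CPM in SD-NS (-0.94 ± 0.10, adjusted p = 4.55e-07). Map4k4, a kinase that associates with STRIPAK, was at 10.8, 8.41 and 6.09 CPM in HFD-337 and 17.4, 20.5 and 11.4 CPM in HFD-NS, against 36.9, 33.8 and 39.7 CPM in SD-NS. HFD-337 lay lowest and the groups did not overlap (-2.12 ± 0.20, adjusted p = 1.06e-07). Strn4, a striatin scaffold, was among the members that rose (0.52 ± 0.13, adjusted p = 0.00219).

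Fatty acid oxidation genes fell as a broad group. In mitochondria 19 of 23 genes fell and 1 rose (median -0.82, -0.93 length-relative), and in peroxisomes 15 of 23 fell and 2 rose (median -0.96, -0.98 length-relative). In HFD-NS against SD-NS, 15 mitochondrial genes were lower and 2 higher, with a median of -0.38, and 13 peroxisomal genes were lower and 1 higher, with a median of -0.37. Of the Cyp4 omega-hydroxylases, which open the peroxisomal route for dicarboxylic acids, 7 of 12 fell and 1 rose (median -1.13, -1.15 length-relative). The number that rose was 3 rather than 1 without HFD-337 replicate 23 and 2 without SD-NS replicate 6 or with the 2 groups fitted alone. Their summed level was 2209 to 3207 CPM in HFD-337, 5958 to 7187 CPM in HFD-NS and 20362 to 20767 CPM in SD-NS.

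Ehhadh, the bifunctional enzyme of peroxisomal oxidation (chromosome 16, 21580035 to 21606584 in mm39), was at 127, 195 and 173 CPM in HFD-337 and 688, 781 and 571 CPM in HFD-NS, against 6496, 6552 and 7237 CPM in SD-NS. The 3 groups were stepwise and apart, HFD-337 lowest, with log2 fold changes of -5.35 ± 0.18 (adjusted p = 2e-13) for HFD-337 and -3.31 ± 0.16 (adjusted p = 2.18e-10) for HFD-NS against SD-NS. Cyp4a14, a fatty acid omega-hydroxylase with close family copies, was at 419, 1149 and 275 CPM in HFD-337 and 3132, 4106 and 3362 CPM in HFD-NS, against 13375, 13899 and 13975 CPM in SD-NS, in the same order (-4.48 ± 0.45, adjusted p = 7.2e-06). Acot1, a cytosolic acyl-CoA thioesterase, was at 30.3, 32.6 and 19.5 CPM in HFD-337 and 88.5, 78.1 and 77.2 CPM in HFD-NS, against 554, 573 and 579.9 CPM in SD-NS (-4.36 ± 0.16, adjusted p = 1.5e-12). Acot3, a peroxisomal thioesterase and neighbour of Acot1 in the genome, showed the same order at 10.04, 7.49 and 1.83 CPM in HFD-337 and 34.4, 67.0 and 44.4 CPM in HFD-NS, against 199, 193 and 138 CPM in SD-NS (-4.74 ± 0.49, adjusted p = 1.04e-05).

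In mitochondria, Cpt1a, the carnitine gate for long-chain fatty acids, was at 381, 385 and 323 CPM in HFD-337 and 544, 638 and 559 CPM in HFD-NS, against 875, 924 and 924 CPM in SD-NS. All 3 groups were apart, with log2 fold changes of -1.32 ± 0.12 (adjusted p = 3.27e-08) for HFD-337 and -0.65 ± 0.12 (adjusted p = 0.000513) for HFD-NS against SD-NS. Etfdh, which hands electrons from acyl-CoA dehydrogenases to ubiquinone, was at 106, 165 and 122 CPM in HFD-337 and 477, 445 and 426 CPM in HFD-NS, against 734, 708 and 705 CPM in SD-NS (-2.44 ± 0.13, adjusted p = 7.23e-11). Slc22a5, the carnitine importer, was at 23.4, 28.6 and 16.8 CPM in HFD-337 and 44.8, 53.5 and 40.3 CPM in HFD-NS, against 155, 164 and 175 CPM in SD-NS (-2.82 ± 0.15, adjusted p = 5.47e-11). Etfb, the beta subunit of the flavoprotein upstream of Etfdh, was the mitochondrial member that rose, at 463, 519.7 and 499.7 CPM in HFD-337 and 285, 286 and 328 CPM in HFD-NS, against 357, 338.5 and 333 CPM in SD-NS (0.53 ± 0.10, adjusted p = 0.000128). Ppara itself, the receptor of the programme, fell at 197, 195 and 151 CPM in HFD-337 and 348, 432 and 420.3 CPM in HFD-NS, against 525, 538 and 597 CPM in SD-NS (-1.61 ± 0.12, adjusted p = 2.95e-09). Fgf21, a hormone that the fasted liver secretes under PPAR alpha, was at 5.71, 2.65 and 0.812 CPM in HFD-337 and 12.4, 9.44 and 5.48 CPM in HFD-NS, against 17.3, 23.7 and 29.5 CPM in SD-NS (-2.92 ± 0.57, adjusted p = 0.00107).

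Ketone body genes fell in 4 of 6 cases and rose in 1 (median -0.55, -0.57 length-relative). Slc16a1, a transporter of ketone bodies and lactate, fell at 73.8, 77.0 and 76.7 CPM in HFD-337 and 122, 95.4 and 73.8 CPM in HFD-NS, against 272, 308 and 285 CPM in SD-NS (-1.93 ± 0.16, adjusted p = 3.29e-08). HFD-337 and HFD-NS overlapped. Bdh1, which interconverts the main ketone bodies, was the member that rose (0.34 ± 0.10, adjusted p = 0.00604).

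**Figure D2:**
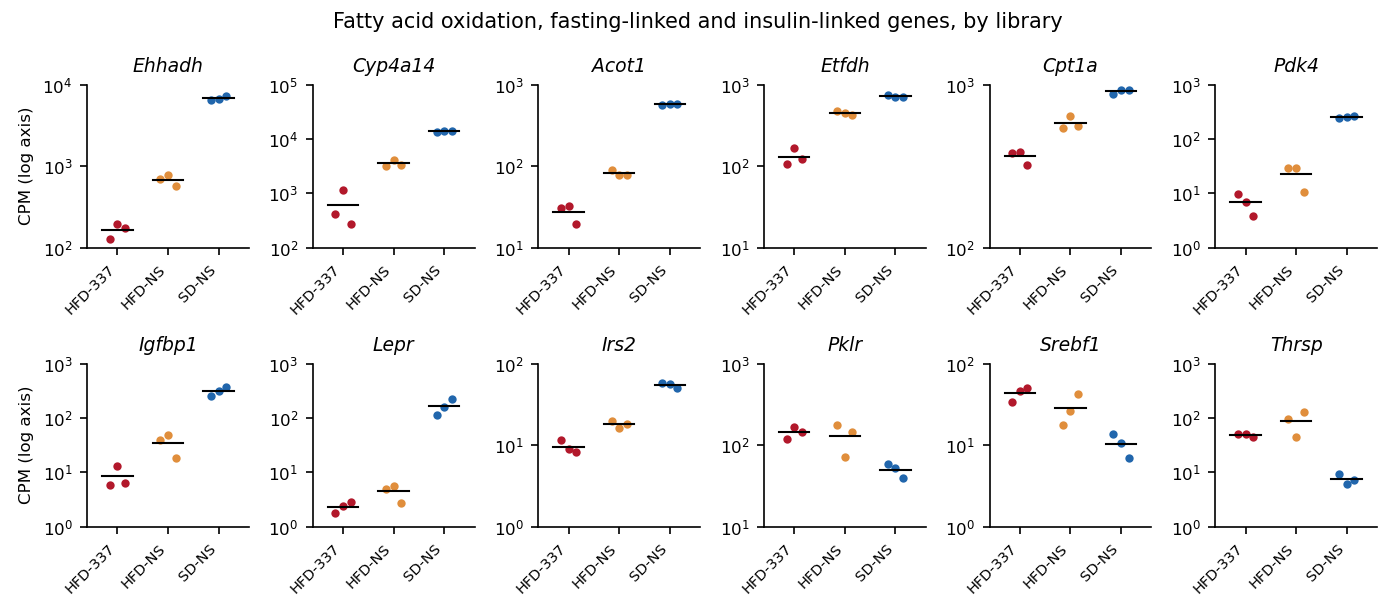
Level (TMM-scaled CPM, log axis) of 12 genes of fatty acid oxidation, fasting and insulin response in HFD-337, HFD-NS and SD-NS, where points are libraries and lines are group means. Ehhadh lay between 127 and 195 CPM in HFD-337, 571 and 781 CPM in HFD-NS and 6496 and 7237 CPM in SD-NS, whereas Srebf1 and Thrsp were higher in both high-fat diet groups than in SD-NS.

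Of 22 hormone receptor and signalling genes, 9 fell and 6 rose (median -0.30, -0.17 length-relative, -0.46 with limma-voom). Pdk4, the kinase that shuts pyruvate dehydrogenase and a member of the mitochondrial list above, was at 9.65, 7.03 and 3.86 CPM in HFD-337 and 29.1, 28.9 and 10.4 CPM in HFD-NS, against 239, 257 and 262 CPM in SD-NS, with all groups apart (-5.19 ± 0.44, adjusted p = 1.82e-06). Igfbp1, a binding protein of insulin-like growth factors that insulin represses, was at 5.91, 13.02 and 6.29 CPM in HFD-337 and 39.4, 48.3 and 18.2 CPM in HFD-NS, against 253, 309 and 363 CPM in SD-NS (-5.11 ± 0.49, adjusted p = 5.51e-06). Lepr, the leptin receptor, was at 1.77, 2.42 and 2.84 CPM in HFD-337 and 5.02, 5.59 and 2.74 CPM in HFD-NS, against 111, 158 and 221 CPM in SD-NS. HFD-337 and HFD-NS overlapped there, both far below SD-NS, with log2 fold changes of -6.10 ± 0.41 (adjusted p = 9.91e-08) and -5.20 ± 0.36 (adjusted p = 1.65e-06) against SD-NS and -0.90 ± 0.52 (adjusted p = 0.182) between them, where DESeq2 made a call (0.0448). Irs2, an adaptor of the insulin receptor, was at 11.6, 8.88 and 8.32 CPM in HFD-337 and 19.7, 16.1 and 18.2 CPM in HFD-NS, against 57.2, 56.6 and 50.3 CPM in SD-NS (-2.52 ± 0.19, adjusted p = 3.84e-09). A rise that HFD-NS did not share by the test was that of Enho, which encodes the peptide adropin. It was at 22.2, 40.7 and 50.1 CPM in HFD-337 and 1.87, 3.72 and 3.48 CPM in HFD-NS, against 2.00, 2.72 and 3.09 CPM in SD-NS. The log2 fold changes were 3.91 ± 0.35 (adjusted p = 2.14e-07) for HFD-337 and 0.28 ± 0.45 (adjusted p = 0.696) for HFD-NS against SD-NS.

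Glucose, gluconeogenesis and glycogen genes went both ways, with 11 of 25 lower and 8 higher (median -0.07, -0.05 length-relative, -0.20 without HFD-337 replicate 27 to 0.0038 with the 2 groups fitted alone). G6pc, the catalytic subunit of glucose-6-phosphatase, fell at 24.0, 150.4 and 94.4 CPM in HFD-337 and 169, 174 and 179.5 CPM in HFD-NS, against 747, 815 and 704 CPM in SD-NS (-3.06 ± 0.50, adjusted p = 0.000346). HFD-337 replicate 23 was the lowest, and the groups did not overlap. HFD-337 and HFD-NS were not separated by the test for G6pc (log2 fold change -0.94, adjusted p = 0.124). They were with recomputed TPM (adjusted p = 0.0321) and without HFD-337 replicate 26 (0.0212). Pklr, liver pyruvate kinase, was at 119.9, 165 and 144 CPM in HFD-337 and 176, 71.6 and 144 CPM in HFD-NS, against 58.0, 52.9 and 39.4 CPM in SD-NS (1.499 ± 0.28, adjusted p = 0.000674). Others moved in HFD-337 apart from HFD-NS. Gbe1, the glycogen branching enzyme, was at 12.6, 17.1 and 12.6 CPM in HFD-337 and 135, 127 and 149 CPM in HFD-NS, against 94.4, 96.8 and 74.3 CPM in SD-NS. It was lowest in HFD-337, with log2 fold changes of -2.63 ± 0.13 (adjusted p = 4.28e-11) for HFD-337 and 0.63 ± 0.11 (adjusted p = 0.000536) for HFD-NS against SD-NS. Pcx, pyruvate carboxylase, likewise fell in HFD-337 (-0.78 ± 0.08, adjusted p = 1.58e-07) while HFD-NS was above SD-NS (0.54 ± 0.08, adjusted p = 7.47e-05).

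Lipogenic genes were divided, with 8 of 23 higher and 5 lower (median 0.09, 0.21 length-relative, -0.05 with the 2 groups fitted alone to 0.25 without HFD-337 replicate 23), and the same counts held for HFD-NS against SD-NS (8 higher and 5 lower). Srebf1, which encodes SREBP1, was at 33.5, 46.0 and 49.9 CPM in HFD-337 and 17.6, 26.4 and 42.0 CPM in HFD-NS, against 13.6, 10.7 and 7.03 CPM in SD-NS (1.99 ± 0.32, adjusted p = 0.000141). Thrsp, a lipogenic protein of the fed liver, was at 51.2, 51.3 and 45.3 CPM in HFD-337 and 94.2, 44.6 and 129 CPM in HFD-NS, against 9.45, 6.22 and 7.31 CPM in SD-NS (2.65 ± 0.47, adjusted p = 0.000576). Fasn, fatty acid synthase, rose (1.17 ± 0.20, adjusted p = 0.000189), whereas Acaca (-0.33 ± 0.17, adjusted p = 0.117) and Scd1, the stearoyl-CoA desaturase, did not pass (-1.12 ± 0.57, adjusted p = 0.119, and 0.0481 with DESeq2). Scd1 varied among the HFD-337 libraries, at 4001, 2839 and 787 CPM, against 6596, 5149 and 4865 CPM in SD-NS. Elovl5, an elongase of polyunsaturated fatty acids, fell at 329.8, 429 and 316 CPM in HFD-337 and 1237, 926 and 939 CPM in HFD-NS, against 1999, 1961 and 2230.3 CPM in SD-NS (-2.52 ± 0.15, adjusted p = 2.11e-10). Me1, malic enzyme, was at 29.1, 32.6 and 19.5 CPM in HFD-337 and 128, 97.1 and 102 CPM in HFD-NS, against 155, 190.1 and 148 CPM in SD-NS (-2.59 ± 0.18, adjusted p = 8.46e-09). Of the ER anchors of SREBP, Insig2 fell (-2.83 ± 0.16, adjusted p = 2.31e-10) and Insig1 rose (1.57 ± 0.24, adjusted p = 7.91e-05).

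Genes of triglyceride synthesis fell in 9 of 15 cases and rose in 3 (median -0.82, -0.81 length-relative, -0.41 without HFD-337 replicate 27), and lipid droplet genes fell in 7 of 16 and rose in 4 (median -0.78, -0.82 length-relative, -0.50 without HFD-337 replicate 27). Plin2, the main droplet coat protein of hepatocytes and a PPAR alpha target, was at 447, 432 and 291 CPM in HFD-337 and 793, 807 and 562 CPM in HFD-NS, against 1912, 1732 and 1864 CPM in SD-NS (-2.23 ± 0.18, adjusted p = 1.37e-08). Fitm2, which helps droplets bud from the ER, was at 6.89, 8.41 and 5.68 CPM in HFD-337 and 30.6, 20.98 and 18.8 CPM in HFD-NS, against 33.3, 33.1 and 41.6 CPM in SD-NS (-2.31 ± 0.19, adjusted p = 8.17e-09). Its relative Fitm1 rose, at 54.9, 30.8 and 23.3 CPM in HFD-337 and 30.1, 23.0 and 28.3 CPM in HFD-NS, against 3.33, 5.44 and 2.25 CPM in SD-NS (3.26 ± 0.36, adjusted p = 3.4e-06). Mogat1, a monoacylglycerol acyltransferase, was at 8.27, 7.49 and 4.67 CPM in HFD-337 and 16.2, 8.57 and 10.4 CPM in HFD-NS, against 1.33, 0.389 and 0.844 CPM in SD-NS (2.89 ± 0.43, adjusted p = 1.38e-05). Dgat2, which makes triglyceride from diacylglycerol, was higher in HFD-337 (0.69 ± 0.13, adjusted p = 0.000209) and in HFD-NS (1.08 ± 0.13, adjusted p = 1.21e-05) than in SD-NS. Cidea, which enlarges droplets in steatotic liver, was at 1.77, 0.115 and 0.203 CPM in HFD-337 and 43.1, 4.10 and 15.1 CPM in HFD-NS, against 0, 0.194 and 0 CPM in SD-NS. SD-NS held 1 count in all. The ratio of HFD-NS to SD-NS was 338.4 (60.5 to 13392 by counting error alone, adjusted p = 0.00366), a call lost with limma-voom (adjusted p = 0.0932) and with the 2 groups fitted alone (0.0619). HFD-337 did not pass against SD-NS (adjusted p = 0.444) and was below HFD-NS (-5.07 ± 1.09, adjusted p = 0.00285), a call also lost with limma-voom (adjusted p = 0.164). Plin4 (-0.52 ± 0.48, adjusted p = 0.382) and Cidec (-1.25 ± 0.54, adjusted p = 0.072), other droplet proteins, did not pass, although Cidec passed as lower without HFD-337 replicate 23 (adjusted p = 0.00416), with limma-voom (0.0126) and with recomputed TPM (0.038).

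Lipases and their inhibitors gave 5 rises and 7 falls of 16 (median 0.06, -0.15 length-relative, -0.05 without HFD-337 replicate 26 to 0.19 without HFD-337 replicate 23). Pnpla2, adipose triglyceride lipase, was at 26.2, 31.2 and 28.0 CPM in HFD-337 and 48.2, 49.9 and 51.5 CPM in HFD-NS, against 92.0, 90.8 and 100.97 CPM in SD-NS (-1.72 ± 0.10, adjusted p = 2.1e-10). Angptl8, a feeding-induced inhibitor of lipoprotein lipase, was at 60.6, 51.9 and 118 CPM in HFD-337 and 20.3, 26.6 and 17.3 CPM in HFD-NS, against 5.46, 6.61 and 7.03 CPM in SD-NS. It was highest in HFD-337 and apart in all 3 groups (3.61 ± 0.33, adjusted p = 8.65e-07). Cd36, a fatty acid importer, was at 187, 157 and 73.3 CPM in HFD-337 and 472, 467 and 362 CPM in HFD-NS, against 75.9, 64.0 and 71.2 CPM in SD-NS. HFD-NS was highest and HFD-337 replicate 27 lay among the SD-NS libraries, with log2 fold changes against SD-NS of 0.99 ± 0.25 (adjusted p = 0.00509) for HFD-337 and 2.62 ± 0.26 (adjusted p = 1.76e-05) for HFD-NS. The call for HFD-337 was lost with the 2 groups fitted alone (adjusted p = 0.0625). Apolipoprotein and assembly genes rose in 9 and fell in 5 of 18 cases, with a median of 0.31 that turned to -0.23 relative to length class. The median was 0.18 without HFD-337 replicate 26, and 3 rather than 5 fell with the 2 groups fitted alone. Apob, which encodes the long backbone of secreted lipoprotein particles, averaged 2940.0 ± 294 CPM in HFD-337 and 7192 ± 469 CPM in HFD-NS, against 11132 ± 761 CPM in SD-NS (SD, n = 3 each), with a log2 fold change of -1.92 ± 0.12 (adjusted p = 4.3e-10). Mttp, which loads lipid onto Apob, fell too (-1.61 ± 0.10, adjusted p = 4.56e-10), while the short genes Apoc1 (1.21 ± 0.14, adjusted p = 7.69e-07) and Apoc3 (1.16 ± 0.14, adjusted p = 8.37e-07) rose.

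Cholesterol synthesis and uptake genes were higher in 14 of 24 cases and lower in 1 (median 0.58, 0.62 length-relative), and HFD-NS against SD-NS gave 14 higher and 1 lower (median 0.59). Fdps, which makes farnesyl diphosphate, was at 80.5, 73.2 and 85.0 CPM in HFD-337 and 72.6, 40.4 and 33.4 CPM in HFD-NS, against 20.2, 25.5 and 14.1 CPM in SD-NS (1.97 ± 0.29, adjusted p = 9.59e-05). Sqle, squalene epoxidase, was at 39.4, 32.2 and 38.0 CPM in HFD-337 and 33.5, 24.2 and 18.3 CPM in HFD-NS, against 9.59, 11.9 and 6.75 CPM in SD-NS (1.92 ± 0.23, adjusted p = 5.29e-06). Hmgcs1, an early enzyme of the pathway, did not pass (0.25 ± 0.21, adjusted p = 0.331). Hsd17b7, a later enzyme, was the member that fell (-1.87 ± 0.15, adjusted p = 1.69e-08).

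Bile acid synthesis and signalling gave 5 rises and 7 falls of 16 (median 0.18, 0.23 length-relative, -0.15 without SD-NS replicate 6 to 0.41 without SD-NS replicate 7). Cyp7a1, the rate-limiting enzyme of bile acid synthesis, was at 102, 133 and 102 CPM in HFD-337 and 255, 149.7 and 189 CPM in HFD-NS, against 39.8, 152 and 98.4 CPM in SD-NS. It did not pass (0.23 ± 0.48, adjusted p = 0.717). Cyp8b1, which directs the product to cholic acid, was at 133, 192 and 109 CPM in HFD-337 and 501, 367 and 413 CPM in HFD-NS, against 511, 749 and 741 CPM in SD-NS, lowest in HFD-337 (-2.20 ± 0.26, adjusted p = 9.77e-06). Hsd3b7, an oxidoreductase of the same route, rose at 792, 845 and 764 CPM in HFD-337 and 521, 472 and 482 CPM in HFD-NS, against 363, 381 and 373 CPM in SD-NS (1.10 ± 0.09, adjusted p = 1.26e-08). Klb, the coreceptor through which the gut hormone FGF15 signals, fell (-1.60 ± 0.16, adjusted p = 8.86e-08) while its partner Fgfr4 rose (1.21 ± 0.14, adjusted p = 1.04e-06). Transporters fell in 6 of 12 cases and rose in 1 (median -0.50, -0.41 length-relative). Abcb4, the phospholipid exporter of bile, was at 223, 195 and 167 CPM in HFD-337 and 427, 399.6 and 364 CPM in HFD-NS, against 684, 759 and 689 CPM in SD-NS (-1.86 ± 0.11, adjusted p = 2.31e-10).

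Core clock genes were displaced in both directions. Of 23 tested, 12 rose and 7 fell (median 0.81, 0.77 length-relative), and the counts were the same under each setting tried. HFD-NS against SD-NS gave 11 higher and 5 lower, with a median of 0.34. The members that rose included Dbp, Per3, Nr1d1 and Ciart. Dbp, a D-box activator whose exons overlap another gene over 32.1% of their length, was at 95.7, 74.1 and 104 CPM in HFD-337 and 7.47, 19.7 and 57.7 CPM in HFD-NS, against 3.06, 3.11 and 3.09 CPM in SD-NS, apart in all 3 groups (4.87 ± 0.80, adjusted p = 0.000388). Its calls in HFD-337 against HFD-NS (adjusted p = 0.0348) and HFD-NS against SD-NS (0.0159) were less firm. Both were lost with the 2 groups fitted alone (0.144 and 0.0996) and when some single libraries were left out. Per3, a period protein, was at 62.2, 38.5 and 62.9 CPM in HFD-337 and 5.25, 12.9 and 27.4 CPM in HFD-NS, against 2.66, 1.94 and 2.25 CPM in SD-NS (4.52 ± 0.69, adjusted p = 0.000214). Nr1d1, the repressor Rev-erb alpha, was at 79.2, 83.5 and 78.7 CPM in HFD-337 and 49.7, 68.3 and 68.9 CPM in HFD-NS, against 7.32, 7.78 and 14.1 CPM in SD-NS (3.12 ± 0.22, adjusted p = 1.53e-08). HFD-337 and HFD-NS were not separated by the test (0.37 ± 0.18, adjusted p = 0.104), and were with the 2 groups fitted alone (adjusted p = 0.0452). Ciart, a repressor of CLOCK, was at 9.84, 8.76 and 13.2 CPM in HFD-337 and 2.69, 4.97 and 17.8 CPM in HFD-NS, against 0.799, 0.778 and 0.844 CPM in SD-NS (3.67 ± 0.86, adjusted p = 0.00344).

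The members that fell included Arntl, Npas2 and Clock, which encode activators, and the repressors Cry1 and Nfil3. Arntl, which encodes BMAL1, was at 5.91, 10.1 and 3.45 CPM in HFD-337 and 22.3, 12.4 and 8.96 CPM in HFD-NS, against 31.3, 33.2 and 36.001 CPM in SD-NS (-2.26 ± 0.34, adjusted p = 8.87e-05). Npas2, a paralog of Clock, was at 1.58, 2.31 and 1.01 CPM in HFD-337 and 5.37, 1.99 and 1.16 CPM in HFD-NS, against 12.4, 7.58 and 6.75 CPM in SD-NS (-2.40 ± 0.45, adjusted p = 0.000249). Clock was at 54.9, 57.6 and 54.8 CPM in HFD-337 and 87.6, 78.1 and 64.7 CPM in HFD-NS, against 145, 157 and 134 CPM in SD-NS (-1.38 ± 0.10, adjusted p = 3.59e-09). Cry1, a late repressor, fell (-1.99 ± 0.26, adjusted p = 2.73e-06), as did Nfil3, the repressor at D-boxes (-1.93 ± 0.27, adjusted p = 4e-05). Per1 did not pass, at 8.07, 33.4 and 39.8 CPM in HFD-337, against 27.3, 26.8 and 24.2 CPM in SD-NS (0.06 ± 0.43, adjusted p = 0.917). Within HFD-NS, replicates 12, 13 and 16 were spread more widely than HFD-337 for Dbp, at 7.47, 19.7 and 57.7 CPM against 95.7, 74.1 and 104 CPM in HFD-337. Time of sampling is not in the labels used here and was not tested.

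**Figure D3:**
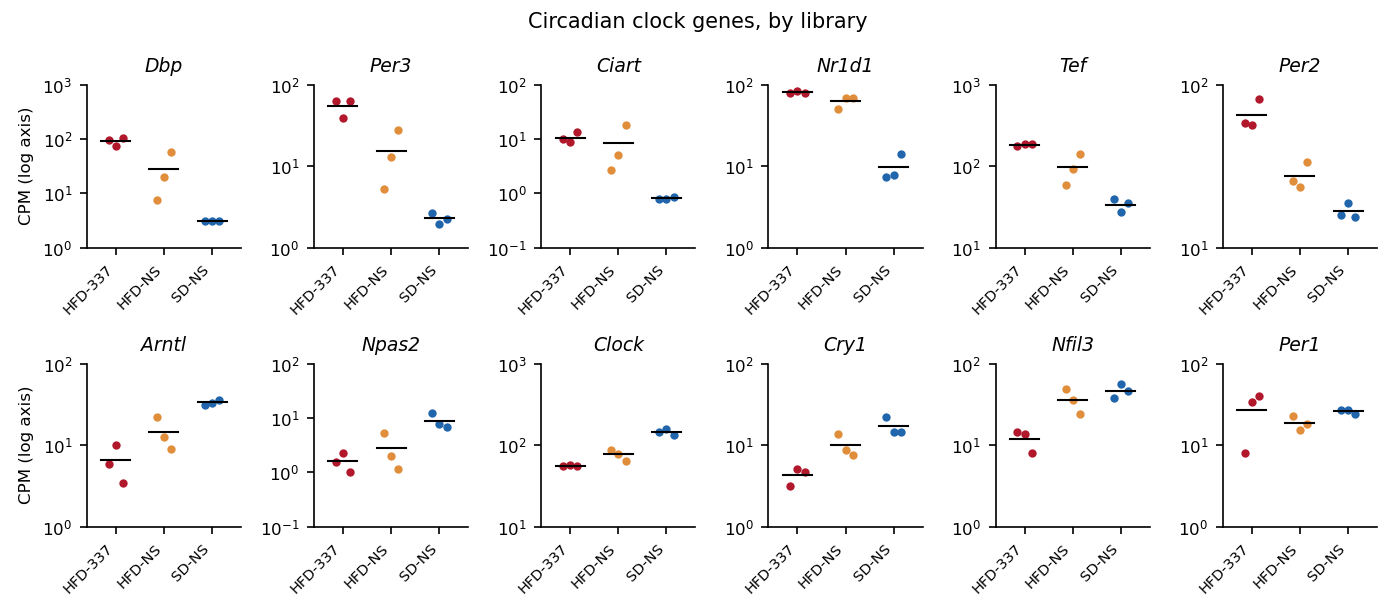
Level (TMM-scaled CPM, log axis) of 12 clock genes in HFD-337, HFD-NS and SD-NS, where points are libraries and lines are group means. Dbp, Per3 and Nr1d1 were highest in HFD-337 and lowest in SD-NS without overlap, whereas Arntl, Clock and Cry1 were lowest in HFD-337 and highest in SD-NS.

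The promoters of a pair of these genes are shown because they hold the letters known to be read by the clock proteins. Sequences are RefSeq's, build GRCm38.p6, 250 bases before to 50 after the gene start, 5′ to 3′ on the gene's strand. In Ciart (chr3:95882179-95882478, minus strand) capitals mark 3 matches to the E-box CACGTG, beginning 116, 58 and 44 bases before the start, and in Per3 (chr4:151044616-151044915, minus strand) capitals mark 2 matches to the D-box TTANGTAA, beginning 205 and 158 bases before it.
Ciart: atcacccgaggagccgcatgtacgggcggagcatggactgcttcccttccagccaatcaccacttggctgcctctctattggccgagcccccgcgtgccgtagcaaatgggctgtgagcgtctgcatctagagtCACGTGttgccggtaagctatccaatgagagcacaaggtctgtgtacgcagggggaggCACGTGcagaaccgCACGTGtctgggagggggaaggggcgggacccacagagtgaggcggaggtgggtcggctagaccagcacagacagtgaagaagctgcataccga
Per3: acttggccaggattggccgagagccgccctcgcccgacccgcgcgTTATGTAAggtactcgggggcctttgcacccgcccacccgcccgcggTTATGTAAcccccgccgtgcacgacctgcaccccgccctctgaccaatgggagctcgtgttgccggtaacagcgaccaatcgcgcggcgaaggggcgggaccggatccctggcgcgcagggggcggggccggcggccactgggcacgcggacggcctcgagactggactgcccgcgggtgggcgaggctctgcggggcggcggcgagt
Both strands were searched. The E-box was in 6 of 24 promoters of the clock genes matched (25%; 19 of 23 genes matched) and in 7.15% of all 32851 promoters, and the D-box in 1 of 24 (4.17%) and in 2.32% of all. Besides Ciart, the E-box was in promoters of Cry1, Per1, Tef and Bhlhe41, whose log2 fold changes were -1.99, 0.06, 2.435 and 2.75. A match describes letters only, and the clock gene promoters hold the GC box GGGCGG in 83.3% of cases, against 35.7% of all.

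Interferon-stimulated genes rose almost throughout. Of 45 tested, 42 rose and 0 fell in HFD-337 against SD-NS (median 1.74, 1.65 length-relative), and 41 to 43 rose under each setting tried. HFD-NS against SD-NS had 29 higher and 0 lower (median 0.87), and HFD-337 against HFD-NS 35 higher and 1 lower (median 1.02). Their summed level was 3423 to 3994 CPM in HFD-337, 1867 to 2122 CPM in HFD-NS and 1297 to 1426 CPM in SD-NS.

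Ifit1, which binds foreign RNA ends (chromosome 19, 34618289 to 34627409 in mm39), was at 307, 413 and 232 CPM in HFD-337 and 39.1, 48.7 and 44.1 CPM in HFD-NS, against 22.6, 17.1 and 23.6 CPM in SD-NS. The 3 groups were apart, with log2 fold changes of 3.91 ± 0.34 (adjusted p = 1.63e-06) for HFD-337 and 1.06 ± 0.33 (adjusted p = 0.0337) for HFD-NS against SD-NS. The call for HFD-NS was lost when any 1 of the HFD-NS and SD-NS libraries was left out (adjusted p = 0.0509 to 0.123). Isg15, a ubiquitin-like modifier, was at 75.4, 98.0 and 69.0 CPM in HFD-337 and 13.4, 15.4 and 13.3 CPM in HFD-NS, against 5.33, 6.42 and 5.91 CPM in SD-NS (3.80 ± 0.29, adjusted p = 1.1e-07). Zbp1, a sensor of Z-form nucleic acids, was at 50.2, 46.2 and 35.1 CPM in HFD-337 and 9.57, 17.0 and 11.3 CPM in HFD-NS, against 4.93, 5.44 and 3.66 CPM in SD-NS (3.19 ± 0.31, adjusted p = 6.35e-07). Psmb9, an immunoproteasome subunit, was at 41.3, 36.7 and 30.4 CPM in HFD-337 and 11.7, 13.04 and 17.2 CPM in HFD-NS, against 3.195, 3.11 and 3.94 CPM in SD-NS (3.43 ± 0.24, adjusted p = 1.28e-09). Irf7, the transcription factor that amplifies interferon output, was at 84.9, 88.1 and 77.5 CPM in HFD-337 and 22.0, 34.9 and 29.5 CPM in HFD-NS, against 20.2, 16.5 and 23.9 CPM in SD-NS. It passed in HFD-337 (2.06 ± 0.27, adjusted p = 2.64e-05) and not in HFD-NS (0.52 ± 0.27, adjusted p = 0.178) against SD-NS, and the difference between the high-fat diet groups passed (1.54 ± 0.25, adjusted p = 0.000253). HFD-NS also passed against SD-NS with the 2 groups fitted alone (adjusted p = 0.0431).

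Not all members followed that order. Cxcl10, an interferon-induced chemokine, was at 11.8, 19.5 and 14.4 CPM in HFD-337 and 15.9, 20.6 and 14.7 CPM in HFD-NS, against 3.195, 3.31 and 2.25 CPM in SD-NS. HFD-337 and HFD-NS were not separated by the test there (-0.13 ± 0.19, adjusted p = 0.591). Gbp2, another guanylate-binding protein and, chosen after its values were seen, the member that was lower in HFD-337 than in HFD-NS, was at 6.10, 8.64 and 5.28 CPM in HFD-337 and 7.71, 24.6 and 25.4 CPM in HFD-NS, against 3.59, 4.86 and 3.66 CPM in SD-NS. HFD-337 lay below HFD-NS (-1.48 ± 0.39, adjusted p = 0.00745) and did not pass against SD-NS (0.77 ± 0.50, adjusted p = 0.21). In fits of only the 2 groups compared, the call against HFD-NS was lost (adjusted p = 0.0522) and HFD-337 passed against SD-NS (0.0347), and limma-voom lost the call against HFD-NS as well (0.0811). Tlr3, the endosomal receptor of double-stranded RNA, rose at 17.9, 17.4 and 19.5 CPM in HFD-337 and 9.22, 11.7 and 10.6 CPM in HFD-NS, against 7.46, 6.80 and 9.0001 CPM in SD-NS (1.25 ± 0.15, adjusted p = 9.33e-07). Tlr4 (-1.36 ± 0.35, adjusted p = 0.00297) and Tlr5 (-1.13 ± 0.21, adjusted p = 0.000147), receptors of bacterial products, fell. Of all 13 Toll-like receptor genes tested, 3 rose and 3 fell, beside 28.1% and 27.1% of all genes tested. Their median was -0.45 (-0.72 length-relative, -0.18 without HFD-337 replicate 27), with 2 to 4 rises and 3 to 4 falls over the alternatives.

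**Figure D4:**
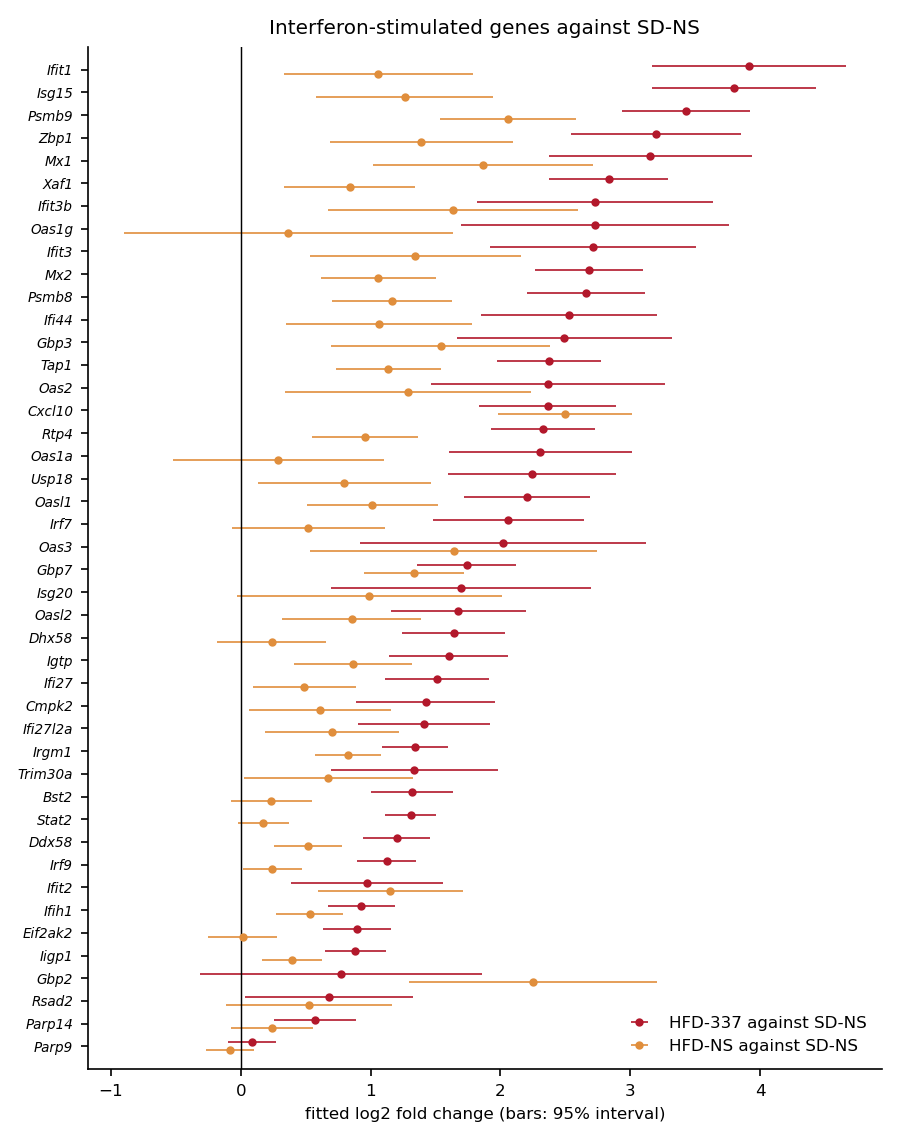
Fitted log2 fold change of 44 of the 45 tested interferon-stimulated genes against SD-NS, with bars for the 95% interval, for HFD-337 (red) and HFD-NS (orange). In HFD-337 41 of the 44 genes were called higher and 0 lower, and in HFD-NS 28 were called higher.

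The promoters of Ifit1 and Isg15 are shown because both rose and hold the element that interferon-activated factors are known to read, searched on both strands as GAAA, 2 bases of any kind and GAAA. In Ifit1 (chr19:34640639-34640938 in GRCm38.p6, plus strand) capitals mark 2 matches on the reverse strand, beginning 104 and 85 bases before the start, and in Isg15 (chr4:156200769-156201068, minus strand) 3 overlapping matches that begin 78, 72 and 66 bases before it.
Ifit1: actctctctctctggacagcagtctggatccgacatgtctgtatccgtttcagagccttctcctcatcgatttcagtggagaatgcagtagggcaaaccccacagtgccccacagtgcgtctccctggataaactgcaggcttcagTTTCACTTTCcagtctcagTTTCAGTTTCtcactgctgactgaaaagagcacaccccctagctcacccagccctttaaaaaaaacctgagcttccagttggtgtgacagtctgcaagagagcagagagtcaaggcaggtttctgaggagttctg
Isg15: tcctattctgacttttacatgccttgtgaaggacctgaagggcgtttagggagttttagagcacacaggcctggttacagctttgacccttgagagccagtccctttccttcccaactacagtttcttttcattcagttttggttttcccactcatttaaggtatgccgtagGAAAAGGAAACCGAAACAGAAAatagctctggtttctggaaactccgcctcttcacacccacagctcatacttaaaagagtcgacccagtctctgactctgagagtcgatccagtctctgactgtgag
The element was in 21 of 38 promoters of the interferon-stimulated genes matched (55.3%; 32 of 45 genes matched) and in 3.44% of all 32851 RefSeq promoters, which describes letters and not binding.

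Antigen presentation genes rose in 15 of 16 cases and fell in 0 (median 1.44, 0.99 length-relative). HFD-NS against SD-NS had 14 higher and 0 lower (median 0.81), and HFD-337 against HFD-NS 8 higher and 0 lower (median 0.46). B2m, the light chain of MHC class I, averaged 5242 ± 236 CPM in HFD-337 and 2501 ± 119 CPM in HFD-NS, against 1772 ± 18.7 CPM in SD-NS (SD, n = 3 each). It had log2 fold changes of 1.57 ± 0.12 (adjusted p = 2.92e-09) for HFD-337 and 0.50 ± 0.11 (adjusted p = 0.0032) for HFD-NS against SD-NS. Nlrc5, the transactivator of class I genes, was at 85.1, 81.0 and 76.1 CPM in HFD-337 and 25.3, 33.2 and 38.3 CPM in HFD-NS, against 28.5, 24.3 and 28.97 CPM in SD-NS. HFD-337 was again the highest (1.57 ± 0.14, adjusted p = 2.77e-08). The class II gene H2-Ab1, of professional antigen-presenting cells, was at 47.5, 20.4 and 28.6 CPM in HFD-337 and 15.8, 31.3 and 37.6 CPM in HFD-NS, against 9.19, 6.42 and 12.4 CPM in SD-NS. HFD-337 and HFD-NS overlapped (1.79 ± 0.41, adjusted p = 0.00294). In bulk tissue, more cells of a type and more RNA per cell cannot be told apart, nor can fewer cells and less RNA per cell.

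Macrophage markers of monocyte-derived and lipid-associated kind rose in 10 of 15 cases and fell in 2 (median 1.68, 1.551 length-relative), and those of resident Kupffer cells rose in 0 and fell in 6 of 15 (median -0.76, -0.84 length-relative, -0.43 without HFD-337 replicate 26). Gpnmb, a glycoprotein of lipid-laden macrophages, was at 11.2, 4.84 and 8.73 CPM in HFD-337 and 3.74, 6.83 and 2.95 CPM in HFD-NS, against 0.399, 0.194 and 0 CPM in SD-NS (4.92 ± 0.60, adjusted p = 2.44e-06). Trem2, a lipid receptor of the same cells, was at 6.10, 1.15 and 3.45 CPM in HFD-337 and 1.28, 2.23 and 1.48 CPM in HFD-NS, against 0.666, 0 and 0.563 CPM in SD-NS (2.91 ± 0.76, adjusted p = 0.00386). Cx3cr1, a chemokine receptor of monocyte-derived cells, rose (3.14 ± 0.61, adjusted p = 0.000371). Cd9, a tetraspanin also on that list, fell (-1.89 ± 0.16, adjusted p = 2.03e-08). Markers of that list summed to 331 to 680 CPM in HFD-337, 457 to 567 CPM in HFD-NS and 409 to 456 CPM in SD-NS. In this sum HFD-337 overlapped both other groups. Cd163, the haemoglobin scavenger receptor of Kupffer cells with 21.2% exon overlap, was at 0.788, 1.27 and 0.609 CPM in HFD-337 and 7.82, 5.59 and 1.16 CPM in HFD-NS, against 23.6, 14.6 and 19.7 CPM in SD-NS (-4.32 ± 0.62, adjusted p = 6.09e-05). Clec4f, the most selective Kupffer marker, was at 25.01, 11.4 and 17.0 CPM in HFD-337, against 58.3, 40.1 and 66.7 CPM in SD-NS (-1.66 ± 0.54, adjusted p = 0.0244). The call was lost without HFD-337 replicate 26 (adjusted p = 0.0929) or 27 (0.0616) and without SD-NS replicate 6 (0.0605) or 8 (0.0619). Kupffer markers summed to 303 to 711 CPM in HFD-337, 544 to 587 CPM in HFD-NS and 733 to 875 CPM in SD-NS. In this sum HFD-337 overlapped HFD-NS and lay below SD-NS. Of the Kupffer markers 3 rather than 6 fell without HFD-337 replicate 26.

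Chemokine and cytokine genes rose in 10 of 24 cases and fell in 2 (median 1.14, 0.75 length-relative, 0.48 with recomputed TPM). Cxcl1, a neutrophil attractant, was at 143, 23.7 and 38.8 CPM in HFD-337 and 11.9, 32.2 and 16.2 CPM in HFD-NS, against 0.932, 3.11 and 1.69 CPM in SD-NS, with HFD-337 replicate 23 the highest (5.21 ± 0.93, adjusted p = 0.000737). Cxcl11, another interferon-induced chemokine, was at 21.9, 15.9 and 11.6 CPM in HFD-337 and 4.20, 3.72 and 4.95 CPM in HFD-NS, against 3.73, 2.92 and 2.81 CPM in SD-NS (2.34 ± 0.29, adjusted p = 1.51e-06). Ccl2, a monocyte attractant, was highest in HFD-NS, at 0.984, 0.922 and 0.812 CPM in HFD-337 and 5.84, 4.97 and 3.16 CPM in HFD-NS, against 0.133, 0.583 and 0.281 CPM in SD-NS. HFD-NS was above SD-NS (3.82 ± 0.53, adjusted p = 3.9e-05), and HFD-337 was below HFD-NS (-2.33 ± 0.41, adjusted p = 0.000153). HFD-337 did not pass against SD-NS (1.49 ± 0.71, adjusted p = 0.0806), and passed without SD-NS replicate 7 (0.0487) and with recomputed TPM (0.0464). Acute phase genes rose in 10 and fell in 6 of 24 (median 0.67, 0.23 length-relative). Saa4, the constitutive serum amyloid, was at 671, 604 and 559.5 CPM in HFD-337 and 510.0, 748 and 712 CPM in HFD-NS, against 129.5, 156 and 158 CPM in SD-NS (2.05 ± 0.22, adjusted p = 2.71e-06). The fibrinogen chain Fga fell (-0.92 ± 0.14, adjusted p = 2.19e-05).

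Of 34 complement and coagulation genes 17 rose and 8 fell (median 0.30, 0.01 length-relative). F11, coagulation factor XI, was at 205, 206 and 179.6 CPM in HFD-337 and 44.1, 57.0 and 71.6 CPM in HFD-NS, against 27.6, 40.6 and 32.9 CPM in SD-NS, apart in all groups (2.55 ± 0.16, adjusted p = 1.21e-09). Mbl2, a mannose-binding lectin of complement, rose at 545, 742 and 605 CPM in HFD-337 and 437, 497 and 463 CPM in HFD-NS, against 278, 299 and 241 CPM in SD-NS (1.21 ± 0.13, adjusted p = 2.1e-07). F13b, a subunit of the clot-stabilising transglutaminase, fell in HFD-337 (-1.17 ± 0.12, adjusted p = 9.17e-08) but did not pass in HFD-NS (-0.06 ± 0.11, adjusted p = 0.744) against SD-NS.

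Endothelial markers were low in HFD-337. Of 17 markers of liver sinusoidal endothelium 14 fell and 1 rose (median -1.85, -1.81 length-relative), and of 12 vascular endothelial markers 7 fell and 0 rose (median -0.85, -0.69 length-relative). HFD-NS against SD-NS gave 2 lower and 2 higher of the sinusoidal markers and 0 and 0 of the vascular ones. Sinusoidal markers summed to 236 to 352 CPM in HFD-337, 771 to 948 CPM in HFD-NS and 414 to 650.3 CPM in SD-NS, a sum that Cd36 and other genes shared with hepatocytes enter.

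Lyve1, the hyaluronan receptor of these cells, was at 4.53, 3.80 and 2.84 CPM in HFD-337 and 23.4, 23.2 and 18.4 CPM in HFD-NS, against 19.0, 12.4 and 13.2 CPM in SD-NS (-2.02 ± 0.24, adjusted p = 9.91e-07). Kdr, a receptor of vascular endothelial growth factor, was at 6.69, 7.95 and 9.74 CPM in HFD-337 and 28.5, 36.01 and 32.7 CPM in HFD-NS, against 52.5, 32.9 and 53.4 CPM in SD-NS (-2.51 ± 0.29, adjusted p = 5.53e-06). HFD-337 lay below both other groups for each, and HFD-NS overlapped SD-NS for both genes. Bmp2, a signal from endothelium to hepatocytes, was at 5.51, 4.38 and 7.51 CPM in HFD-337 and 16.1, 15.4 and 12.8 CPM in HFD-NS, against 32.7, 20.03 and 30.4 CPM in SD-NS (-2.30 ± 0.22, adjusted p = 8.56e-08). Pecam1, a junction protein of all endothelium, was at 5.32, 3.69 and 3.86 CPM in HFD-337 and 15.8, 22.3 and 15.5 CPM in HFD-NS, against 16.6, 12.2 and 19.4 CPM in SD-NS (-1.92 ± 0.27, adjusted p = 1.28e-05). Stab2, a scavenger receptor that defines sinusoidal endothelium, did not pass, at 35.2, 19.0 and 22.3 CPM in HFD-337 and 37.5, 48.2 and 35.2 CPM in HFD-NS, against 46.2, 23.7 and 47.3 CPM in SD-NS (-0.63 ± 0.26, adjusted p = 0.0569). It passed without HFD-337 replicate 23 (adjusted p = 0.00698) or SD-NS replicate 7 (0.00214), with DESeq2 (0.0319) and with limma-voom (0.0365). Of the vascular markers 4 rather than 7 fell without HFD-337 replicate 26 or without SD-NS replicate 6.

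Stellate cell and myofibroblast markers fell in 9 of 18 cases and rose in 1 (median -0.60, -0.68 length-relative), with 3 rather than 1 rising without HFD-337 replicate 27. Their sum was 248 to 429 CPM in HFD-337, 608 to 703 CPM in HFD-NS and 541 to 649 CPM in SD-NS. Dcn, a collagen-binding proteoglycan of quiescent stellate cells, was at 117, 81.5 and 59.1 CPM in HFD-337 and 215, 228 and 185 CPM in HFD-NS, against 226, 219 and 208 CPM in SD-NS (-1.35 ± 0.21, adjusted p = 9.71e-05). Hgf, a growth factor for hepatocytes, was at 1.38, 1.84 and 0.812 CPM in HFD-337 and 6.66, 8.69 and 6.32 CPM in HFD-NS, against 9.85, 7.19 and 5.63 CPM in SD-NS (-2.44 ± 0.55, adjusted p = 0.00181). Col1a1, the main fibrillar collagen, went the other way at 37.2, 10.03 and 7.92 CPM in HFD-337 and 17.5, 18.4 and 8.64 CPM in HFD-NS, against 1.60, 0.972 and 2.81 CPM in SD-NS. HFD-337 replicate 23 was the highest, and the high-fat diet groups overlapped (3.40 ± 0.81, adjusted p = 0.00435). Acta2, the smooth muscle actin of activated stellate cells, did not pass (0.66 ± 0.90, adjusted p = 0.556). Over all collagen and matrix genes 11 of 36 rose and 7 fell, beside 28.1% and 27.1% of all genes tested. Their median was 0.26 (0.59 length-relative, -0.04 without HFD-337 replicate 23 to 0.42 without HFD-337 replicate 27). Of the collagen and matrix genes, 7 rose without HFD-337 replicate 23, 6 without SD-NS replicate 6 and 7 without SD-NS replicate 7 or 8. With limma-voom, recomputed TPM or the 2 groups alone 6 or 7 rose. Mmp15, a membrane-bound metalloproteinase, rose (1.76 ± 0.14, adjusted p = 7.2e-09).

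Markers of bile duct epithelium rose in 5 of 11 cases and fell in 0 (median 0.71, 0.54 length-relative, 0.32 with recomputed TPM), although their defining member Epcam did not pass (0.88 ± 0.44, adjusted p = 0.101), and passed without HFD-337 replicate 26 (adjusted p = 0.0296). Krt18, a keratin that hepatocytes share, was at 384, 303 and 301 CPM in HFD-337 and 144, 188 and 132 CPM in HFD-NS, against 157, 157 and 189 CPM in SD-NS (0.98 ± 0.14, adjusted p = 1.54e-05). Of lymphoid cells, the markers for T and NK cells (5 tested) were not called in either direction by edgeR, 1 had an unadjusted p under 0.05, and DESeq2 called 1.

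Hepatocyte genes of the pericentral zone rose in 12 of 24 cases and fell in 2 (median 0.42, 0.43 length-relative), and those of the periportal zone rose in 7 and fell in 16 of 29 (median -0.64, -0.76 length-relative). HFD-NS against SD-NS gave 10 higher and 0 lower pericentral genes and 6 higher and 13 lower periportal genes. Lect2, a secreted pericentral factor and a target of Wnt signalling, was at 287, 265 and 239 CPM in HFD-337 and 148, 165 and 146 CPM in HFD-NS, against 35.5, 43.6 and 40.8 CPM in SD-NS. Groups were apart (2.73 ± 0.11, adjusted p = 2.68e-12). Cyp2e1, a pericentral P450, did not pass (0.04 ± 0.16, adjusted p = 0.869). Cps1, which starts the urea cycle, was at 630.1, 1497 and 1202 CPM in HFD-337 and 2282, 3113 and 3369 CPM in HFD-NS, against 5090.5, 5739.9 and 5129 CPM in SD-NS (-2.26 ± 0.25, adjusted p = 3.67e-06). Tdo2, a tryptophan dioxygenase, was at 579, 872 and 806 CPM in HFD-337 and 1663, 1910.5 and 2111 CPM in HFD-NS, against 3065, 3235 and 2803 CPM in SD-NS (-2.01 ± 0.15, adjusted p = 4.34e-09). Otc, the next step of the urea cycle, rose instead (1.05 ± 0.14, adjusted p = 4.1e-06).

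Among xenobiotic enzymes, P450 families 1 to 3 rose in 9 and fell in 13 of 40 cases (median -0.10, -0.29 length-relative, -0.18 without HFD-337 replicate 26 to 0.06 without HFD-337 replicate 27). Sulfo- and glucuronosyltransferases with flavin monooxygenases rose in 4 and fell in 15 of 31 (median -0.41, -0.40 length-relative). Cyp3a11, the main drug-metabolising P450 of mouse liver with close family copies, was at 1299, 1836 and 668 CPM in HFD-337 and 1939, 1890.1 and 1328 CPM in HFD-NS, against 8174, 6675 and 6100.4 CPM in SD-NS. Both high-fat diet groups were low (-2.46 ± 0.34, adjusted p = 6.35e-05). Cyp2c29, of another multigene family, was at 137, 224 and 167 CPM in HFD-337 and 633, 674 and 757 CPM in HFD-NS, against 1249, 1158 and 823 CPM in SD-NS (-2.61 ± 0.28, adjusted p = 5.54e-06). Ugt3a1, a glycosyltransferase, fell at 7.68, 18.2 and 17.3 CPM in HFD-337 and 85.6, 92.3 and 85.7 CPM in HFD-NS, against 67.4, 77.0 and 69.8 CPM in SD-NS (-2.28 ± 0.23, adjusted p = 1.02e-06). HFD-337 was below HFD-NS as well (-2.58 ± 0.22, adjusted p = 6.47e-07). Glutathione S-transferases rose in 14 of 22 cases and fell in 3 (median 0.52, 0.10 length-relative, 0.33 without HFD-337 replicate 26). There were 9 rather than 14 rises without SD-NS replicate 8 and 1 rather than 3 falls without HFD-337 replicate 26. For this list HFD-NS against SD-NS gave 13 higher and 3 lower (median 0.52), and HFD-337 against HFD-NS 3 higher and 3 lower (median 0.13). Gstp3 rose at 46.5, 44.7 and 29.6 CPM in HFD-337 and 12.4, 12.04 and 16.1 CPM in HFD-NS, against 7.06, 6.42 and 6.75 CPM in SD-NS (2.58 ± 0.20, adjusted p = 5.1e-09). Genes that other work found biased to male liver rose in 6 and fell in 6 of 24, beside 28.1% and 27.1% of all genes tested. Their median was -0.37 (-0.43 length-relative, -1.07 without HFD-337 replicate 27 to 0.09 without SD-NS replicate 7). There were 2 to 3 falls without HFD-337 replicate 23 or 26 or SD-NS replicate 7, and 3 rises and 3 falls with the 2 groups fitted alone. Genes biased to female liver rose in 5 and fell in 9 of 27 (median -0.19, 0.09 length-relative, -2.16 with the 2 groups fitted alone to 0.22 without HFD-337 replicate 27). There were 2 to 3 rises without HFD-337 replicate 26 or SD-NS replicate 6 or 7, with limma-voom or with the 2 groups fitted alone. Hsd3b5, a male-biased steroid reductase, was at 68.7, 42.3 and 390.5 CPM in HFD-337 and 2.57, 0.869 and 2.53 CPM in HFD-NS, against 5.33, 9.14 and 4.22 CPM in SD-NS, with HFD-337 replicate 27 the highest (4.71 ± 0.96, adjusted p = 0.00177). Cyp17a1, a steroid hydroxylase and female-biased, was at 7.48, 12.8 and 3.45 CPM in HFD-337 and 52.0, 58.4 and 88.2 CPM in HFD-NS, against 77.7, 75.4 and 84.7 CPM in SD-NS (-3.23 ± 0.31, adjusted p = 2.2e-06).

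Stress genes moved in parts. Of the unfolded protein and integrated stress responses, genes rose in 12 and fell in 7 of 29 (median 0.30, 0.21 length-relative, 0.05 without SD-NS replicate 6 to 0.76 without SD-NS replicate 7). Sdf2l1, an ER chaperone cofactor, was at 128, 61.1 and 114 CPM in HFD-337 and 67.8, 54.5 and 30.1 CPM in HFD-NS, against 4.53, 22.2 and 9.56 CPM in SD-NS (3.09 ± 0.52, adjusted p = 0.000419). Dnajb9, by contrast, a cofactor of the chaperone BiP, was at 54.0, 32.7 and 30.6 CPM in HFD-337 and 184, 183 and 116 CPM in HFD-NS, against 73.1, 130.5 and 85.2 CPM in SD-NS, lowest in HFD-337 (-1.31 ± 0.26, adjusted p = 0.000921). Of the p53 targets 9 of 19 rose and 4 fell (median 0.60, 0.34 length-relative, 0.30 with recomputed TPM). Cdkn1a, the cell cycle inhibitor p21, was at 21.3, 19.9 and 10.4 CPM in HFD-337 and 91.7, 57.9 and 39.7 CPM in HFD-NS, against 127, 131 and 129.7 CPM in SD-NS (-2.89 ± 0.38, adjusted p = 5.98e-05). Bax, by contrast, an executor of cell death, was at 22.1, 18.6 and 17.5 CPM in HFD-337 and 10.5, 11.9 and 9.59 CPM in HFD-NS, against 9.05, 8.17 and 8.44 CPM in SD-NS (1.17 ± 0.18, adjusted p = 2.06e-05). Cell cycle and replication genes rose in 14 of 29 cases and fell in 2 (median 0.91, 0.89 length-relative, 0.39 with recomputed TPM). The rises numbered 5 without HFD-337 replicate 23, 7 without SD-NS replicate 7 and 8 without SD-NS replicate 6, and 6 or 7 with limma-voom, recomputed TPM or the 2 groups alone. Gins2, of the replicative helicase, rose at 6.498, 4.03 and 2.44 CPM in HFD-337 and 0.701, 1.12 and 0.949 CPM in HFD-NS, against 0.399, 0.389 and 0.563 CPM in SD-NS (3.26 ± 0.46, adjusted p = 8.3e-06). Pcna, the sliding clamp of replication, fell (-0.67 ± 0.12, adjusted p = 0.000162).

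Genes of nuclear receptors rose in 7 and fell in 5 of 23 cases, beside 28.1% and 27.1% of all genes tested. Their median was 0.12 (0.26 length-relative, 0.08 with recomputed TPM to 0.23 with no low-count filter), with 3 rather than 5 falls without HFD-337 replicate 27. Hnf4a, a master regulator of hepatocyte identity, was at 359, 398 and 414 CPM in HFD-337 and 676, 665 and 612 CPM in HFD-NS, against 781, 858 and 773 CPM in SD-NS (-1.04 ± 0.11, adjusted p = 2.09e-07). Esrra, a regulator of mitochondrial genes, rose in HFD-337 at 27.8, 29.2 and 30.6 CPM in HFD-337 and 11.1, 9.19 and 12.97 CPM in HFD-NS, against 13.6, 12.2 and 13.5 CPM in SD-NS (1.15 ± 0.14, adjusted p = 1.77e-06). Of the thyroid hormone receptors, Thra rose (1.83 ± 0.17, adjusted p = 3.58e-08), though its exons overlap those of Nr1d1 over 8.25% of their length. Thrb, the main receptor of hepatocytes, did not pass (-0.25 ± 0.12, adjusted p = 0.0937), and passed without HFD-337 replicate 27 (adjusted p = 0.0274).

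Of 79 cytosolic ribosomal protein genes 49 rose and 11 fell, with a median of 0.41 that turned to -0.21 relative to length class. Of 63 nuclear-encoded respiratory chain genes 38 rose and 9 fell, with a median of 0.37 and of -0.13 relative to length class, and 14 rather than 9 fell with recomputed TPM. HFD-NS against SD-NS gave 0 higher and 62 lower ribosomal protein genes (median -0.37), with 0 lower by at least 2-fold. HFD-337 against HFD-NS gave 66 higher and 1 lower (median 0.76), with 25 higher by at least 2-fold. Ribosomal protein genes held 1.65% to 1.91% of counts in HFD-337, 1.02% to 1.09% in HFD-NS and 1.18% to 1.29% in SD-NS. Rpl38, a short subunit gene, was at 314, 248 and 290.2 CPM in HFD-337 and 98.6, 87.3 and 98.0 CPM in HFD-NS, against 124, 109.8 and 128 CPM in SD-NS (1.24 ± 0.12, adjusted p = 6.1e-08). Its call as lower in HFD-NS than in SD-NS (adjusted p = 0.033) was lost with recomputed TPM (0.194) and with no low-count filter (0.0787). It was also lost when some single libraries were left out. Rps4x, another subunit gene, was at 110.1, 140.3 and 149 CPM in HFD-337 and 156, 179 and 185 CPM in HFD-NS, against 264, 247 and 253 CPM in SD-NS (-0.94 ± 0.11, adjusted p = 7.76e-07). Uqcrq, a small subunit of complex III, rose at 568, 524 and 489.9 CPM in HFD-337 and 247, 217 and 247 CPM in HFD-NS, against 201, 179 and 176 CPM in SD-NS (1.51 ± 0.11, adjusted p = 2.86e-09). Sdha, the catalytic subunit of complex II, fell (-0.47 ± 0.10, adjusted p = 0.000486).

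Some genes that stood apart in HFD-NS lay at the SD-NS level in HFD-337, which is a description by a rule on the interval of the fold change and carries no test. Aldh1a1, a retinaldehyde dehydrogenase with 11.2% exon overlap, was at 1262, 1168 and 1112 CPM in HFD-337 and 2757, 2740.4 and 2408 CPM in HFD-NS, against 1041, 1150.2 and 1042 CPM in SD-NS. The 95% interval of its log2 fold change between HFD-337 and SD-NS was -0.08 to 0.34. Enpp2, which makes lysophosphatidic acid, was at 52.97, 60.2 and 69.4 CPM in HFD-337 and 122, 123 and 138 CPM in HFD-NS, against 59.6, 55.2 and 63.3 CPM in SD-NS (interval -0.25 to 0.32). C8a, a pore subunit of complement and the reverse case, was at 1018, 823 and 1336 CPM in HFD-337 and 523, 499 and 508 CPM in HFD-NS, against 860.1, 1159.5 and 955 CPM in SD-NS (interval -0.34 to 0.53).

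**Figure D5:**
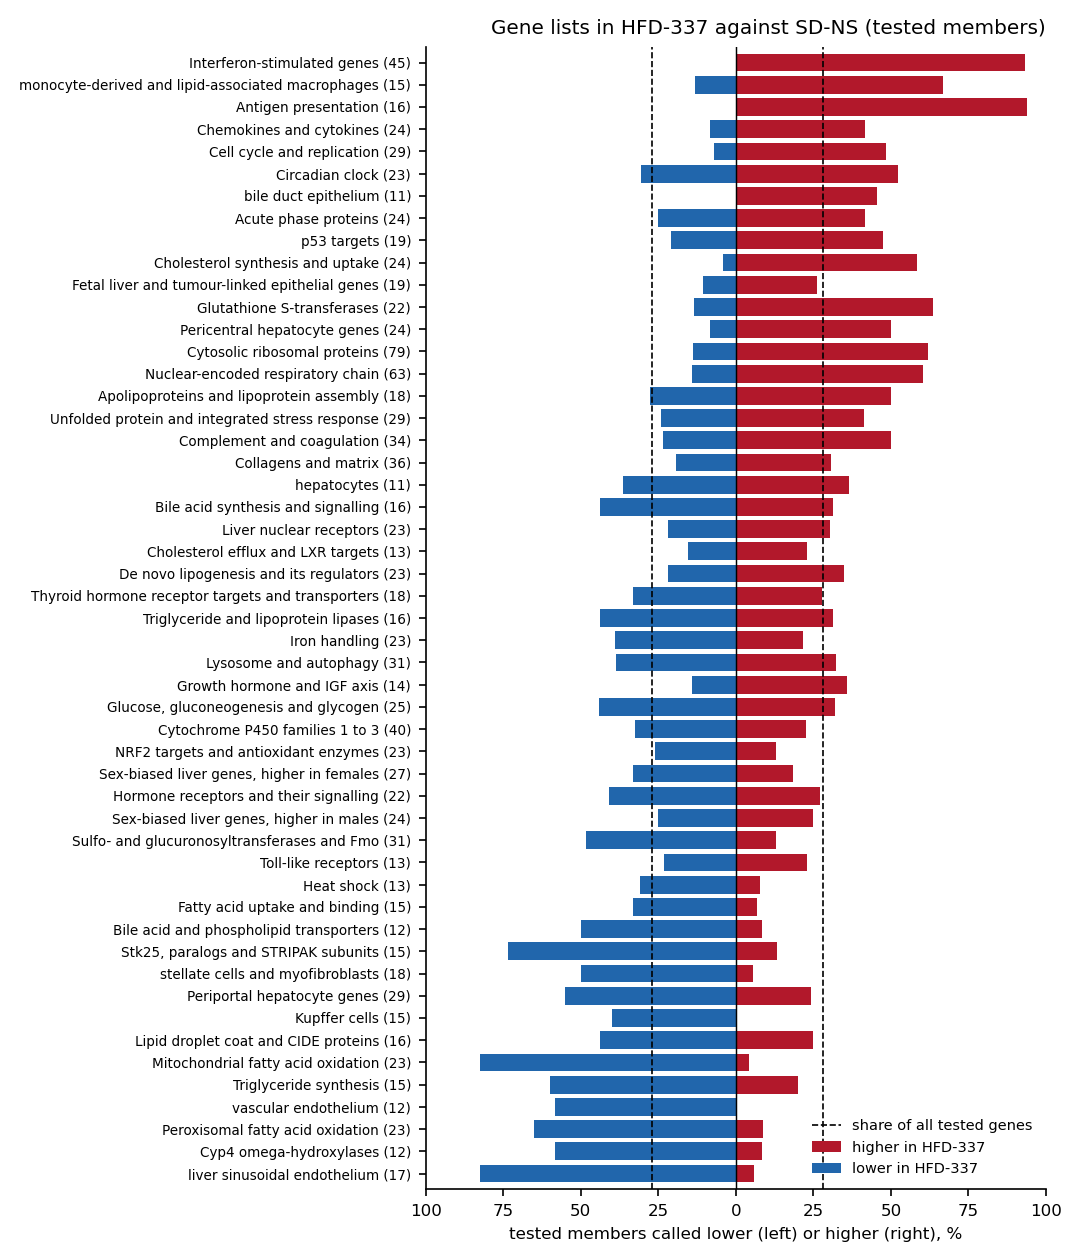
Percentage of tested members of each gene list called lower (left) or higher (right) in HFD-337 against SD-NS, with dashed lines at the shares of all tested genes (27.1% lower and 28.1% higher). Interferon-stimulated genes (42 of 45 higher) and markers of liver sinusoidal endothelium (14 of 17 lower) lay far from the dashed lines on opposite sides.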

How the data were processed

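The labels describe liver RNA isolated with TRIzol and chloroform and polyA selection. The authors deposited raw read counts per gene for 15 libraries of 5 groups, made with featureCounts 2.0.1 per the file headers (exons per gene, no strand, a read counted for each gene it overlaps). The build mm39, Trim Galore 0.6.10, Bowtie 1.3.1 and STAR 2.7.10b are named in the submitters' processing notes, with no role for Bowtie. A second deposited table, with 15 columns of TPM values, was not used. Of 26264 genes, 8421 had no count in the 6 libraries compared, and 0 were mitochondrial. From the counts, edgeR 4.0.16 (R 4.3.3, filterByExpr, TMM factors 0.873 to 1.14) fitted 1 robust quasi-likelihood model to all 15 libraries, so that the groups share 1 estimate of the spread (common biological coefficient of variation 0.134), and p-values were adjusted over 13189 genes. Exon overlaps came from bedtools 2.31.1. Alternatives used DESeq2 1.42.0, limma 3.58.1, RLE size factors, no filter, only the 2 groups compared, TPM recomputed from counts as log2(TPM + 1), and each library left out. The fit was also run on simulated data in which most genes were equal in all groups and no length trend was set. With 7281 of 13189 genes called in HFD-337 against SD-NS, the real data differ from that setting. The simulation therefore cannot show how scaling or error rates behave here.

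Members and lists were chosen with earlier results of these data known. Named genes were the 15 largest rises and falls and up to 4 per list and direction, among genes that passed the test, averaged at least 1 CPM and did not overlap between HFD-337 and SD-NS. To these were added a core list named whatever its result, the 10 most abundant called genes of each direction with at least a 1.5-fold change, and genes near the SD-NS level in HFD-337 but called in HFD-NS. The text prints a selection of these, and some genes are not reported here. Libraries of 3873903 to 9797743 counts limit precision for genes of a few counts.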

Additional observations from a re-analysis of the deposited data

How the results depend on the processing

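For HFD-337 against SD-NS, the genes higher numbered 3195 to 3885 and the genes lower 3117 to 3611 over all alternatives, within 1.5 times the reported counts, and 48.8% to 53.9% of calls were higher. Other counts moved further, and the cause was not tested. For HFD-NS against SD-NS the genes higher numbered 1054 to 1399 when 1 library was left out, the lowest without SD-NS replicate 7, and with recomputed TPM 1098 genes were lower and 162 were at least 2-fold lower. For HFD-337 against HFD-NS 457 genes were at least 2-fold higher with recomputed TPM, where the median over all genes was -0.08 in place of 0.03. Counts of called list members, for 110 list counts, stayed within 1.5 times of the reported count in 1237 cases and moved further in 83. Of the 149 genes given with values in the report, 131 were called in HFD-337 against SD-NS, 128 of them under every alternative that gave them a result. Cpne5, Hao2, Klhl31, Peg10 and Trem2 had a result in 11 of the 12 alternatives. Alb, Clec4f and Cd36 lost their call under some alternatives. Of the 149 genes, 0 changed direction with a call in either fit. Uncalled genes did change sign, such as Per1 (-0.23 to 0.47) and Cyp7a1 (-0.16 to 0.73). No paired analysis was possible because the replicate numbers in the labels differ between all groups.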
